A study of Mus musculus with 20 samples.

Results

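Transcripts of 41 genes of ribosome biogenesis and the nucleolus were followed over the day in IgA+ plasma cells (IgA+ PCs). The genes were chosen by name, from nucleolar scaffold proteins to the enzymes and factors that make and trim ribosomal RNA, together with Myc, and each was found in the count table by the Ensembl identifier that carries its symbol in the table of normalized values. All 41 were found among 47069 genes, and all 41 were among the 13967 genes that passed the filter on low counts. Wild-type C57BL/6 mice were sampled at ZT0, ZT6, ZT12 and ZT18 (zeitgeber time, in hours after lights on, with lights off at ZT12), and plasma cells were sorted on CD138 and IgA from the small-intestinal lamina propria. Each of the 20 libraries came from 1 animal, with 5 animals at each time, and the animals' age is not given in the labels. No group carried a transgene, a deletion or a treatment. The question was whether transcripts of the nucleolar machinery differed between times of day. Libraries are whole sorted populations, so fewer cells that use a gene and less of its RNA per cell cannot be told apart.

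Ribosomes are built in the nucleolus, where RNA polymerase I transcribes the ribosomal RNA precursor and small nucleolar ribonucleoproteins modify it. Processing complexes then cleave and fold the precursor into the small and the large subunit. The transcription factor MYC is known in many cell types to raise genes of this pathway, and plasma cells, which secrete antibody at a very high rate, depend on a large pool of ribosomes.

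The libraries held a total of 35.6 to 68.0 M counts each, of which 52.6 to 62.3% fell on immunoglobulin genes, and the lowest count of any member in any library was 100. Plasma cell markers were high throughout, such as Sdc1 (CD138) at 692.8 to 862.1 CPM (counts scaled to a common library size, here by TMM) and Xbp1 at 1856 to 2126 CPM. They were not all steady: 4 of the 8 were called between the 4 times, against 19.5% of all genes tested. These were Prdm1, Irf4, Mzb1 and Tnfrsf17, with Irf4 at 267.6 to 750.3 CPM (adjusted p = 1.47e-05). Of the 8 B cell markers 6 averaged under 1 CPM, Pax5 and Ighd among them, and 7 of 8 markers of T cells and innate lymphoid cells did too, Cd3d, Cd3e and Cd3g among them. The exception was Cd4, at 20.03 to 31.24 CPM, which was called between the 4 times (adjusted p = 0.000409). All 8 markers of macrophages and dendritic cells averaged above 1 CPM, such as Lyz2 at 19.03 CPM, Csf1r at 17.84 CPM and C1qa at 17.1 CPM, and their sum was 72.96 to 116.8 CPM. Of these 8 only C1qa was called between the 4 times (adjusted p = 0.00118). Of 10 enterocyte markers 8 averaged under 1 CPM, while Epcam averaged 50.62 CPM and was called between the 4 times (adjusted p = 0.00143). Pecam1, on the list of stromal and endothelial markers, averaged 28.57 CPM and was called too (adjusted p = 1.51e-05). Some libraries stood apart: ZT12 replicate 5 and ZT18 replicate 2 had the highest sums of 10 heat shock genes (5114 and 3618 CPM), and ZT6 replicate 4, ZT6 replicate 3 and ZT18 replicate 2 had the highest sums of 9 Paneth and goblet cell genes (63.1, 24.8 and 23.4 CPM). The heat shock sum also differed by time in its mean, at 922.3 CPM at ZT0, 756.3 CPM at ZT6, 2359 CPM at ZT12 and 1617 CPM at ZT18. Its libraries overlapped between times, and none of the 10 genes was called between the 4 times.

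The 41 genes spanned a 55-fold range of FPKM, a scale that divides by 1 length for each gene. On this scale Npm1 and Ncl stood highest, with means over 20 libraries of 67.2 and 58.0 FPKM. Npm1 encodes nucleophosmin and Ncl nucleolin, the main RNA-binding proteins of the nucleolus. Nop56 (32.5 FPKM) and Rrp1 (32.0 FPKM) came next, and their ranges over libraries overlapped. The median member stood at 9.84 FPKM, 19 of 41 were above 10 FPKM, and the lowest were Wdr12 (1.70 FPKM) and Utp20 (1.22 FPKM). FPKM were divided by whole library totals, immunoglobulin counts included, so differences between times are given on the TMM-scaled CPM instead.

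**Figure D1:**
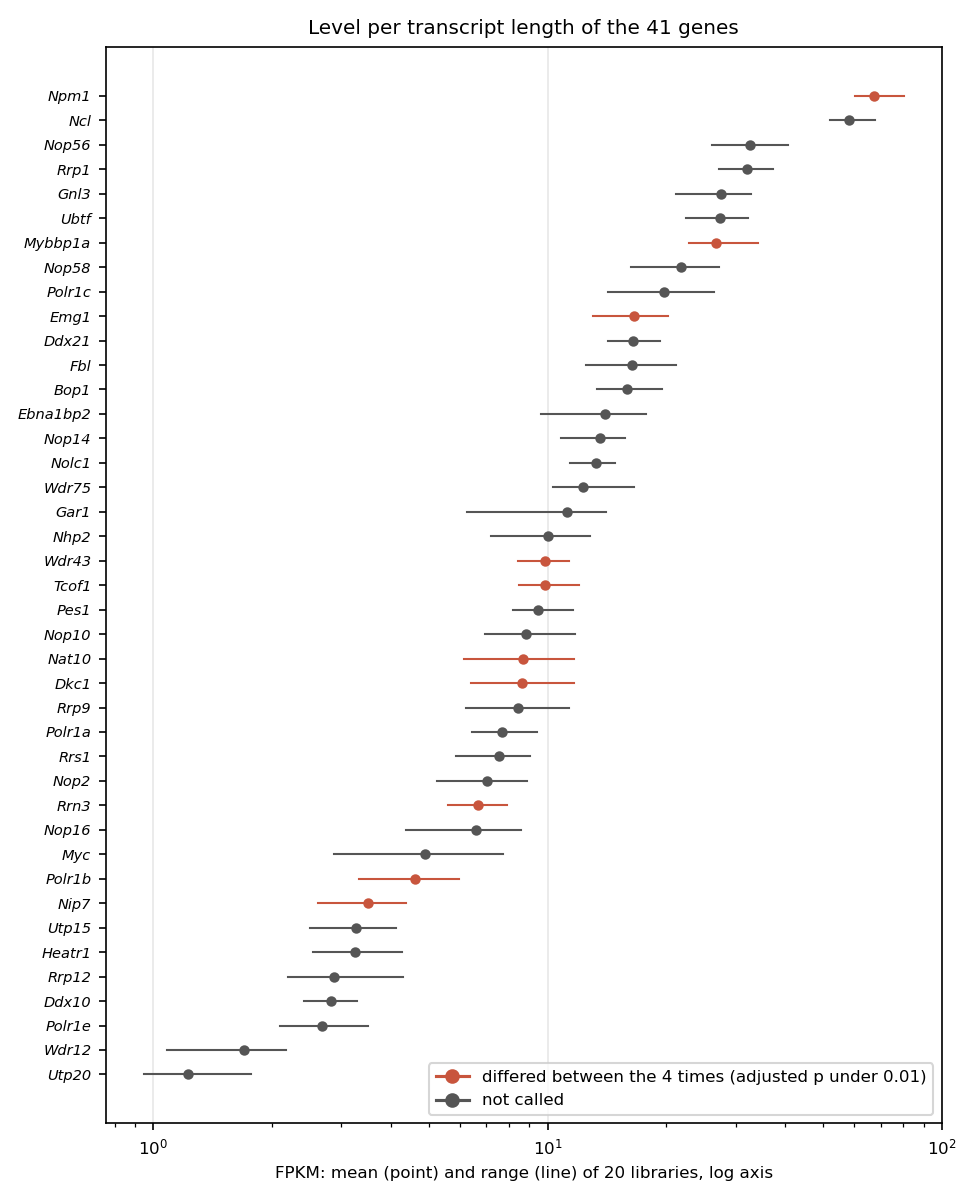
FPKM of each of the 41 genes on a log axis, with the mean of 20 libraries as a point and their range as a line; colour marks the 10 genes called between the 4 times. Npm1 (67.2 FPKM) and Ncl (58.0 FPKM) stand at the top and Utp20 (1.22 FPKM) at the bottom, and called genes lie at many levels.

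Levels moved little over the day. The ratio of the highest to the lowest time mean had a median of 1.17 over the 41 genes, was under 1.2 in 28 of them and exceeded 1.5 only in Myc, at 1.61. Over all genes tested the median ratio was 1.26, and over the 8174 genes within the members' range of level it was 1.19. In edgeR's quasi-likelihood test for any difference between the 4 times (Benjamini-Hochberg adjusted p under 0.01), 10 members were called, or 24.4%, against 19.5% of all genes tested and 27.8% of genes at the members' levels. In this fit the share of members called lay between these backgrounds. The called genes were Npm1, Tcof1, Mybbp1a, Dkc1, Polr1b, Rrn3, Wdr43, Nat10, Emg1 and Nip7. A 24-hour cosine was called in 6 members, against 11.3% of all genes: Emg1, Nat10, Mybbp1a, Polr1b and Dkc1 with fitted peaks between 17.77 and 19.97 hours, and Npm1 with its peak at 10.03 hours. The time of the highest mean was ZT18 in 21 of 41 members, against 27.4% of all genes and 29.45% of genes at the members' levels. The time of the lowest mean was ZT6 in 22 members, against 25.5% and 26.5% of these backgrounds, and ZT0 in 15, against 23.1% and 24.7%. The calls of Npm1, Tcof1, Polr1b, Nat10 and Emg1 held in all 20 fits that left out 1 library, whereas those of Mybbp1a, Dkc1, Rrn3 and Wdr43 were lost in 13 to 15 of them and that of Nip7 in 5. Over 11 alternative settings, the calls of Npm1 and Tcof1 were lost in 4 each, that of Nat10 in 3 and that of Polr1b in 1. Those of the other called members were lost in 4 to 7 of the 11, except that of Emg1, which held in all. The count of 10 was 5 without ZT0 replicate 3 or without ZT18 replicate 1, and 6 without ZT18 replicate 4. With library totals in place of TMM it was 3, where the count over all genes was 2452 in place of 2727. Without the 3 libraries highest in Paneth and goblet genes it was also 3, where the count over all genes was 1975. The cosine count of 6 was 3 without ZT6 replicate 2, ZT6 replicate 3, ZT18 replicate 3 or ZT18 replicate 4, and 2 without those 3 libraries.

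Myc encodes the transcription factor that drives much of this pathway. It measured 8.48, 9.19, 6.79, 5.97 and 6.36 CPM at ZT0, then 6.46, 8.17, 9.88, 10.9 and 6.95 CPM at ZT6. At ZT12 it measured 6.09, 8.96, 8.41, 7.18 and 9.15 CPM, and at ZT18 14.2, 13.8, 7.85, 12.5 and 11.03 CPM. The 4 highest ZT18 libraries lay above all 15 libraries of the other times, while the fifth, replicate 3, lay among them. Myc did not pass the test between the 4 times (adjusted p = 0.0153), nor did its largest difference, ZT0 minus ZT18, at a log2 fold change of -0.69 ± 0.17 (SE, n = 5 each, adjusted p = 0.0107). Without ZT18 replicate 3 the adjusted p between the 4 times was 0.000879, without ZT6 replicate 4 it was 0.00647 and without ZT0 replicate 2 it was 0.00849, and DESeq2 gave 0.000317. Myc stayed uncalled in 17 of 20 fits that left out 1 library (adjusted p up to 0.0535) and in 9 of 11 alternatives (up to 0.0516). Among its partners and antagonists, Mxi1, which competes with MYC for the partner MAX, averaged 47.4 ± 3.2 CPM at ZT0, 70.5 ± 3.0 CPM at ZT6, 59.1 ± 5.0 CPM at ZT12 and 65.2 ± 3.7 CPM at ZT18 (SD, n = 5 each, adjusted p = 2.60e-08 between the 4 times). Mxd1, an antagonist of the same kind, was called as well (adjusted p = 6.22e-07), at 108.8 ± 10.9 CPM at ZT18 against 83.4 ± 1.9 CPM at ZT6, a log2 fold change of 0.38 ± 0.07 (SE, adjusted p = 0.000113).

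MYC with MAX binds the letters CACGTG, a 6-base palindrome called an E-box, which the clock factors CLOCK and BMAL1 bind too. RefSeq promoter windows (GRCm38.p6, 250 bases before to 50 after the start) were at hand for 34 of the 41 genes, and 6 of these held the letters (17.6%, against 8.09% of all 27025 genes in the table). The 6 were Nop2, Utp20, Pes1, Mybbp1a, Rrn3 and Wdr43. Among the called genes were 3 of these, 5 of the 28 genes without the letters and 2 of the 7 with no entry, against 19.5% of all genes tested. A link between the letters and the calls was not tested, and the calls of Mybbp1a, Rrn3 and Wdr43 were each lost in 13 to 15 of 20 fits that left out 1 library. The windows of Rrn3, Mybbp1a and Wdr43, the called genes with the letters, are shown beside that of Emg1, the member with the smallest p, which lacked them. Each is printed 5′ to 3′ on the gene's strand with CACGTG in capitals. The window of Rrn3 lies at chr16:13780449-13780748 on the plus strand, with the letters at 215 and at 48 bases before the start. That of Mybbp1a lies at chr11:72441077-72441376 (plus strand, 40 bases past the start), that of Wdr43 at chr17:71615965-71616264 (plus strand, 17 bases past the start), and that of Emg1 at chr6:124712129-124712428 on the minus strand. A match is a description of the letters and does not show binding.
Rrn3: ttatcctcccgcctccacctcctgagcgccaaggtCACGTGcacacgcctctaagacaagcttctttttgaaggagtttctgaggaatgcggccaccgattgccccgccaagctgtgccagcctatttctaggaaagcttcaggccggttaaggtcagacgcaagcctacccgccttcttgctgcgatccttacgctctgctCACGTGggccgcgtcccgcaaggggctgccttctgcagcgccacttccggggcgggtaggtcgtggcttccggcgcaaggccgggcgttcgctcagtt
Mybbp1a: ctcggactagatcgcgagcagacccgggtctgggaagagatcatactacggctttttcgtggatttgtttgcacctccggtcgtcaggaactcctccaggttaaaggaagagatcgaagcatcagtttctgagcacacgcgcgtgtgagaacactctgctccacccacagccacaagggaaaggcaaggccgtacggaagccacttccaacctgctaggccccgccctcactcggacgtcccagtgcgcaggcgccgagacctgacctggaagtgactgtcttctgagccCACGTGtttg
Wdr43: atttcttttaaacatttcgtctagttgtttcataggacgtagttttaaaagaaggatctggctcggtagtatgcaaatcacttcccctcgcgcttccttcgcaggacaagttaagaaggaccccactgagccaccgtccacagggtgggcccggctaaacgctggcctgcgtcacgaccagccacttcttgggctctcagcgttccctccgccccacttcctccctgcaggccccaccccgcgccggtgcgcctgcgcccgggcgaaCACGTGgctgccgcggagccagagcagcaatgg
Emg1: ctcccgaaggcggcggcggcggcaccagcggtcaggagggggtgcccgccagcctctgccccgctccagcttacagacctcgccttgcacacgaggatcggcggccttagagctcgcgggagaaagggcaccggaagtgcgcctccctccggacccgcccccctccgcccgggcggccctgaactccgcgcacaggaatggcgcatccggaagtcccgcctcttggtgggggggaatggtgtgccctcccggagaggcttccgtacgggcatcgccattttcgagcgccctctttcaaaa

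Of the 6 genes of RNA polymerase I and its factors, Polr1b and Rrn3 were called between the 4 times, against 19.5% of all genes tested. Polr1b, the gene of the second-largest subunit, dipped at ZT6. It measured 8.30, 8.97, 9.88, 8.69 and 8.81 CPM at ZT0, 6.78, 5.50, 5.67, 6.59 and 6.60 CPM at ZT6, 7.05, 9.20, 8.82, 10.2 and 7.68 CPM at ZT12, and 9.71, 7.67, 9.16, 9.01 and 7.14 CPM at ZT18. All 5 ZT6 libraries lay below all 15 others. The log2 fold change was -0.52 ± 0.11 for ZT6 minus ZT0 (SE, adjusted p = 0.000701), 0.47 ± 0.11 for ZT12 minus ZT6 (adjusted p = 0.00386) and 0.45 ± 0.11 for ZT18 minus ZT6 (adjusted p = 0.00291). The first of these kept its call in all 12 alternatives and in all 20 fits that left out 1 library. The second lost it in 4 of those fits, and the last without ZT6 replicate 2 (0.41), ZT6 replicate 3 (0.42) or ZT18 replicate 1 (0.41).

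Rrn3 encodes TIF-IA, which carries the polymerase to the promoter of ribosomal DNA. It measured 22.4, 21.01, 22.6, 20.8 and 24.5 CPM at ZT0, 23.0, 25.5, 24.4, 23.0 and 20.5 CPM at ZT6, 25.6, 25.6, 22.5, 21.2 and 22.9 CPM at ZT12, and 25.8, 25.6, 27.3, 27.2 and 28.2 CPM at ZT18. Every ZT18 library lay above every ZT0 and ZT6 library, and ZT0 minus ZT18 was -0.27 ± 0.07 (SE, adjusted p = 0.00472). That call was lost in 5 of 20 fits that left out 1 library, at -0.25 to -0.31 over all 20. Polr1c, whose product is shared with RNA polymerase III, moved the other way from Polr1b at ZT6: 15.2, 15.9, 17.0, 19.6 and 17.6 CPM at ZT6, against 14.97, 12.95, 10.7, 14.5 and 13.0 CPM at ZT0, with no overlap and a log2 fold change of 0.37 ± 0.09 (SE, adjusted p = 0.00555, lost in 6 of 20 fits that left out 1 library). Polr1a, the gene of the largest subunit, averaged 17.3 to 20.1 CPM, Ubtf, which encodes the ribosomal DNA binding factor UBF, 68.7 to 74.3 CPM, and the low Polr1e 3.17 to 3.76 CPM over the 4 time means. None of these last genes was called between the 4 times by edgeR, where their adjusted p were 0.096, 0.152 and 0.490.

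Among the 7 scaffold and chaperone genes, Npm1, Tcof1 and Mybbp1a were called between the 4 times, against 19.5% of all genes tested. Npm1 measured 65.4, 60.8, 62.4, 64.2 and 65.4 CPM at ZT0, 70.2, 78.4, 72.6, 75.0 and 72.1 CPM at ZT6, 77.6, 75.8, 71.1, 68.8 and 77.6 CPM at ZT12, and 70.9, 66.2, 67.2, 65.0 and 68.4 CPM at ZT18. Every ZT6 and ZT12 library lay above every ZT0 library. ZT6 minus ZT0 was 0.21 ± 0.05 (SE, adjusted p = 0.00213), and was not called without ZT0 replicate 2 (0.19). ZT12 minus ZT0 was 0.22 ± 0.05 (adjusted p = 0.0025), and was not called without ZT0 replicate 2 (0.20), ZT12 replicate 1 (0.20) or ZT12 replicate 5 (0.21), the last of these the library highest in heat shock genes. With library totals in place of TMM it was 0.05. Of the 50-base windows of the longest annotated Npm1 transcript, 40.9% also stood in an annotated pseudogene. These pseudogenes held 3.86% as many counts as Npm1, so its value is less certain than that of genes without copies.

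Tcof1 encodes treacle, which links RNA polymerase I transcription to processing. It measured 27.8, 33.2, 32.0, 31.6 and 31.1 CPM at ZT0, 26.1, 27.8, 27.9, 24.5 and 25.7 CPM at ZT6, and 30.5, 28.5, 32.7, 33.5 and 31.3 CPM at ZT12. Its ZT18 libraries, at 26.7 to 29.8 CPM, overlapped both ranges, and ZT6 and ZT12 did not overlap. ZT6 minus ZT0 was -0.24 ± 0.06 (SE, adjusted p = 0.00394) and ZT12 minus ZT6 was 0.25 ± 0.06 (adjusted p = 0.00495), so that Tcof1, like Polr1b, was lowest at ZT6. These calls were lost in 4 and in 5 of 20 fits that left out 1 library.

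Mybbp1a, which encodes a nucleolar partner of transcription factors, measured 61.3, 52.9, 64.1, 60.7 and 59.2 CPM at ZT18, against 50.1, 50.4, 46.9, 51.6 and 54.4 CPM at ZT6. The lowest ZT18 library lay within the ZT6 range. The log2 fold change was 0.23 ± 0.06 (SE, adjusted p = 0.00304), and was not called without ZT6 replicate 3 (0.21), ZT18 replicate 1 (0.23) or ZT18 replicate 3 (0.21). Ddx21, an RNA helicase of the nucleolus, measured 78.5, 68.7, 71.1, 70.8 and 76.0 CPM at ZT0, against 82.6, 84.4, 78.2, 87.7 and 83.2 CPM at ZT18, where only the lowest library reached into the ZT0 range. ZT0 minus ZT18 was -0.19 ± 0.05 (adjusted p = 0.00762, lost in 7 of 20 fits that left out 1 library), and Ddx21 was not called between the 4 times (adjusted p = 0.0213). Ncl measured 135.6 to 150.1 CPM at ZT6, above all 5 libraries at ZT0 (121.5 to 129.5 CPM). That step missed the threshold, at 0.17 ± 0.05 (adjusted p = 0.011). Gnl3, the gene of nucleostemin, and Nolc1, a chaperone of snoRNPs, had adjusted p of 0.0155 and 0.169 between the 4 times.

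The box C/D proteins guide methylation of ribosomal RNA, with Fbl as the methyltransferase and Nop56 and Nop58 as its core partners, and edgeR called none of the 3 between the 4 times (adjusted p = 0.930, 0.0883 and 0.0201), with 2 at an unadjusted p under 0.05. Nop56 and Nop58 were not called in any of 11 alternatives either, DESeq2 and limma among them. Fbl had the narrowest range of the 41 genes, with time means of 18.6 to 19.3 CPM. Nop56 measured 37.5, 32.3, 31.0, 35.6 and 34.3 CPM at ZT0, 33.0, 35.2, 34.2, 32.6 and 35.7 CPM at ZT6, 33.5, 30.8, 36.7, 33.5 and 32.7 CPM at ZT12, and 37.2, 34.7, 41.3, 37.4 and 36.5 CPM at ZT18. Nop58 measured 30.3, 26.7, 22.3, 22.0 and 25.9 CPM at ZT0, 26.0, 29.5, 29.3, 29.9 and 32.2 CPM at ZT6, 30.5, 25.3, 27.1, 28.0 and 23.3 CPM at ZT12, and 32.2, 29.2, 29.97, 29.9 and 32.2 CPM at ZT18. Times overlapped in both genes. Nop58 reached the threshold without ZT0 replicate 1 (adjusted p = 0.00211) or without ZT12 replicate 1 (0.00761). Fbl and Nop56 also have annotated pseudogene copies, which shared 69.8% and 37.6% of the 50-base windows but held no more than 0.944% as many counts.

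The box H/ACA proteins guide pseudouridylation, with Dkc1 (dyskerin) as the enzyme and Nop10, Nhp2 and Gar1 as its partners. Dkc1 measured 7.96, 8.25, 9.66, 9.12 and 7.42 CPM at ZT18, against 7.12, 6.15, 5.29, 6.41 and 6.21 CPM at ZT6, with no overlap. The log2 fold change was 0.44 ± 0.10 (SE, adjusted p = 0.00254), and was not called without ZT6 replicate 3 (0.39) or ZT18 replicate 3 (0.39). At the other times Dkc1 stood at 6.89 to 8.30 CPM (ZT0) and 6.43 to 8.35 CPM (ZT12). Nhp2 also separated ZT18, at 9.20, 12.1, 9.97, 9.50 and 11.2 CPM, from ZT6, at 7.23, 8.32, 8.88, 7.48 and 8.83 CPM. Its difference, 0.35 ± 0.10, missed the threshold (adjusted p = 0.0111). Nop10 and Gar1 had adjusted p of 0.185 and 0.730 between the 4 times, and Gar1 was the only gene of the 4 whose mean was lower at ZT18 (6.83 CPM) than at ZT6 (7.52 CPM).

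Of the 11 genes of small subunit processing, Emg1, Nat10 and Wdr43 were called between the 4 times (27.3%, against 19.5% of all genes tested). In ZT18 minus ZT6 all 11 had positive log2 fold changes, against 7087 of 13967 genes, and 2 passed the test, against 4.05% of all genes called higher. Emg1, a methyltransferase of small subunit RNA, had the smallest p of the 41 genes (adjusted p = 4.59e-05). It measured 23.7, 25.3, 23.9, 24.3 and 25.8 CPM at ZT0, 17.8, 20.1, 20.3, 18.9 and 21.3 CPM at ZT6, 20.7, 21.03, 21.2, 22.8 and 21.5 CPM at ZT12, and 24.4, 26.9, 25.5, 23.7 and 24.3 CPM at ZT18. All ZT0 and ZT18 libraries lay above all ZT6 and ZT12 libraries. ZT18 minus ZT6 was 0.35 ± 0.06 (SE, adjusted p = 9.0e-05) and ZT6 minus ZT0 was -0.32 ± 0.06 (adjusted p = 0.000232), and both kept their call in all 12 alternatives and in all 20 fits that left out 1 library. ZT18 minus ZT12 was 0.22 ± 0.06 (adjusted p = 0.00953), a call that was lost in 14 of those 20 fits, at 0.19 to 0.24 over all of them. Emg1 shares 334 exon bases, 7.21% of its own, with Lpcat3 on the opposite strand. The strand of counting is not given in the sources used here, so reads of the overlap cannot be assigned. Lpcat3 was not called (ZT18 minus ZT6 of 0.22 ± 0.08, adjusted p = 0.0619).

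Nat10, which encodes the acetyltransferase of ribosomal RNA, measured 20.02, 19.1, 20.2, 21.2 and 15.96 CPM at ZT18, against 13.4, 17.6, 14.4, 13.3 and 14.6 CPM at ZT6. Its ZT0 libraries held 16.1 to 19.7 CPM and its ZT12 libraries 14.1 to 18.3 CPM. ZT18 replicate 5 lay below ZT6 replicate 2, and the other libraries of these times did not overlap. The log2 fold change was 0.40 ± 0.09 (SE, adjusted p = 0.0013), kept in all 20 fits that left out 1 library and lost without the 3 libraries highest in Paneth and goblet genes (0.34). Wdr43, a scaffold of the early processome, was lowest at ZT0, at 33.2, 27.8, 30.5, 30.7 and 31.5 CPM, and its ZT6 libraries held 36.3, 34.9, 34.6, 33.9 and 39.5 CPM. Its ZT18 libraries held 34.7, 33.4, 34.8, 36.6 and 40.2 CPM, and like those at ZT6 all lay above the ZT0 range. ZT6 minus ZT0 was 0.22 ± 0.06 (adjusted p = 0.00748) and ZT0 minus ZT18 was -0.22 ± 0.06 (adjusted p = 0.00743), and each was lost in 9 of 20 fits that left out 1 library. The other members (Nop14, Rrp9, Rrp12, Utp15, Utp20, Wdr75, Heatr1 and Ddx10) had adjusted p of 0.0274 (Wdr75) to 0.751 (Rrp9) between the 4 times.

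Against 19.5% of all genes tested, the only gene called between the 4 times among the 9 of large subunit processing was Nip7. Its product acts in assembly of the large subunit, and it measured 9.96, 7.34, 7.69, 9.15 and 9.28 CPM at ZT0, 12.8, 11.5, 11.6, 10.4 and 10.8 CPM at ZT6, 10.3, 10.6, 10.9, 8.86 and 9.28 CPM at ZT12, and 12.3, 13.0, 12.0, 8.88 and 10.8 CPM at ZT18. ZT6 lay wholly above ZT0, with a log2 fold change of 0.40 ± 0.10 (SE, adjusted p = 0.00556), and ZT0 minus ZT18 was -0.40 ± 0.10 (adjusted p = 0.00665). Each was lost in 5 of 20 fits that left out 1 library. Rrs1, another assembly factor, had the same low point at ZT0, with 12.5, 15.2, 11.9, 12.3 and 14.3 CPM, against 17.5, 15.1, 17.1, 15.6 and 16.5 CPM at ZT6, 15.1, 14.98, 18.8, 16.8 and 15.2 CPM at ZT12, and 16.2, 15.4, 16.2, 17.9 and 13.5 CPM at ZT18. It missed the threshold between the 4 times (adjusted p = 0.0146) and passed it without ZT0 replicate 2 (0.00688) or ZT18 replicate 5 (0.00809). Bop1, Pes1 and Wdr12, which form a complex, had adjusted p of 0.264, 0.263 and 0.188. The remaining genes, Nop2, Nop16, Rrp1 and Ebna1bp2, had adjusted p of 0.307 to 0.566.

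**Figure D2:**
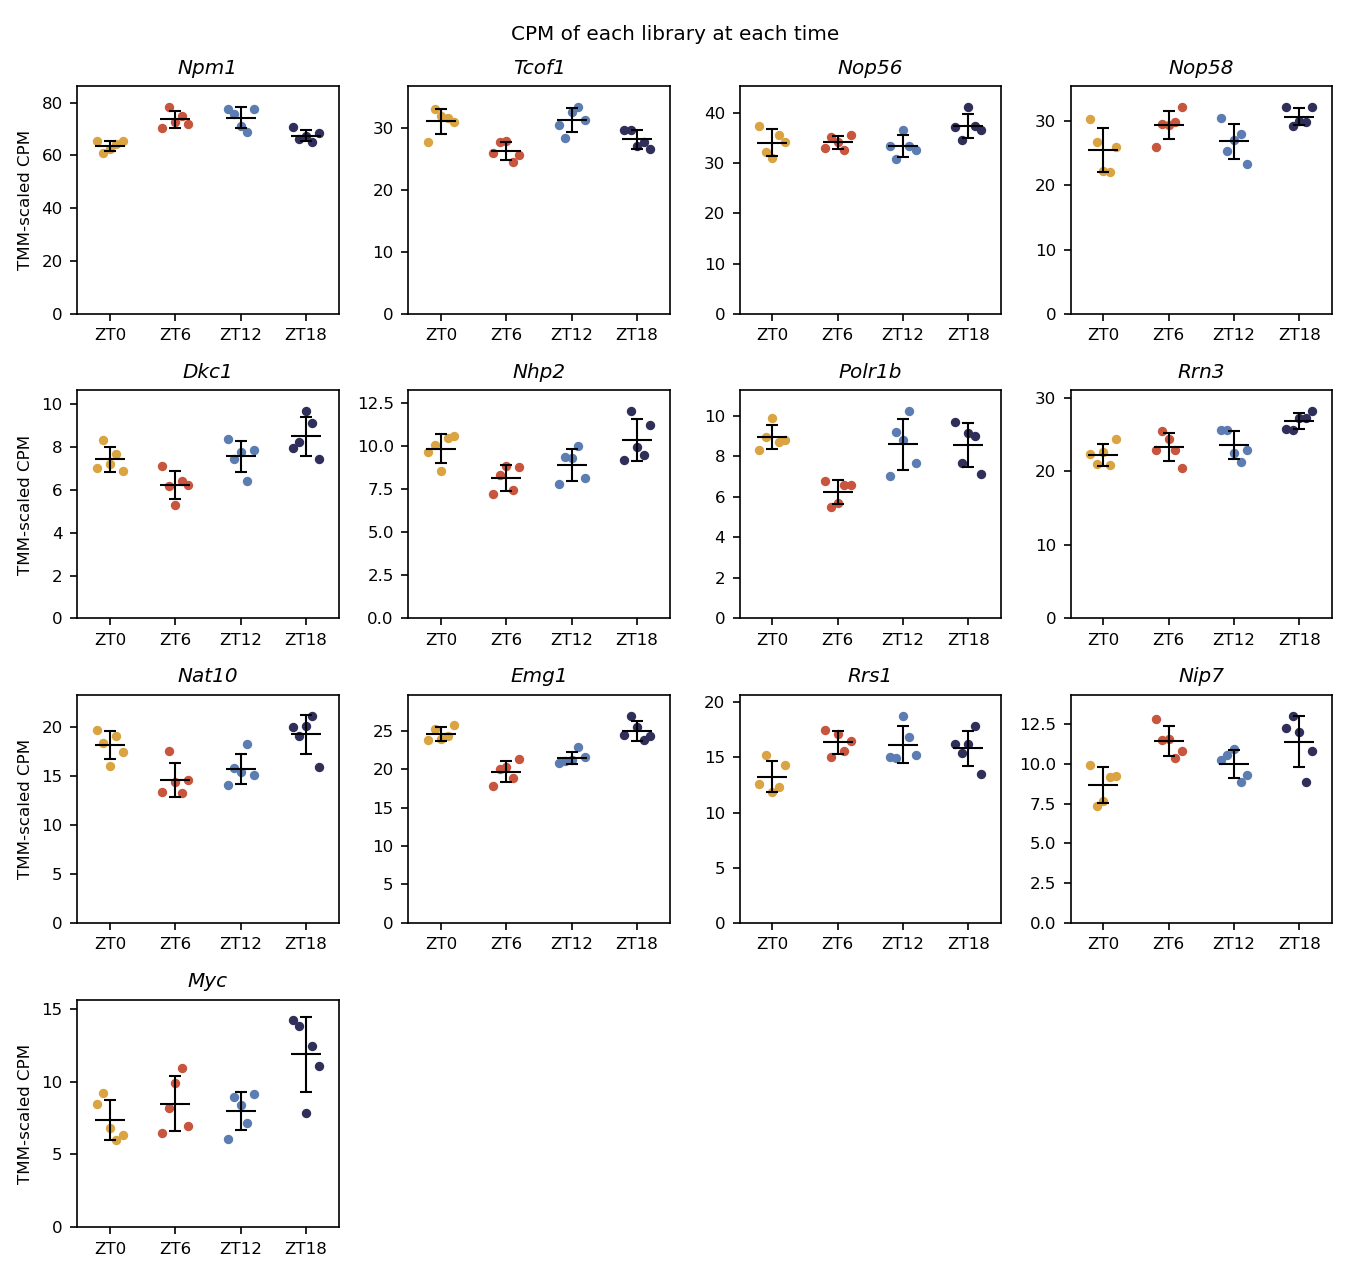
TMM-scaled CPM (vertical axes from 0) of Myc and of the 2 members of each role with the smallest p between the 4 times; points are the 5 libraries at each time, bars the mean and SD. Polr1b and Dkc1 dip at ZT6, Emg1 is lower at ZT6 and ZT12, and 4 of 5 ZT18 libraries of Myc stand above all libraries of the other times.

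The comparisons of opposite times asked how far the genes differed across the day. In ZT18 minus ZT6, middle of the dark against middle of the light phase, 5 members were called (Dkc1, Polr1b, Nat10, Emg1 and Mybbp1a), each higher at ZT18, against 8.24% of all genes called, 4.05% higher and 4.2% lower. Positive log2 fold changes were found in 32 of 41 members and in 7087 of 13967 genes. The members' median was 0.11, against 0.0046 over all genes, and this gap between the medians was 0.0856 to 0.107 over the alternatives. Groups did not overlap in 6 members, each higher at ZT18 (Dkc1, Nhp2, Polr1b, Rrn3, Wdr75 and Emg1), against 5.75% of all genes. Polr1c (-0.27 ± 0.09) and Gar1 (-0.14 ± 0.13) were the members with the lowest values. The count of 5 was 2 without ZT6 replicate 3 and 1 without the 3 libraries highest in Paneth and goblet genes, where the count over all genes was 635 in place of 1151. The summed CPM of the 7 B cell markers that averaged under 10 CPM was 3.99 to 6.64 at ZT18, against 5.76 to 12.07 at ZT6, with Bach2 the highest of them, and that of 18 cell cycle genes was 228 to 239, against 250 to 298. Their part in the differences was not tested.

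In ZT12 minus ZT0, dusk against dawn, Npm1 was the only member called, against 3.86% of all genes (1.96% higher and 1.9% lower), and edgeR's unadjusted p was under 0.05 in 12 of 41. The members' median was 0.0085, against -0.0017 over all genes, and 22 were positive. Libraries of the 2 times did not overlap in Ncl and Npm1, higher at ZT12 (3.98% of all genes), and in Emg1, lower at ZT12 (3.25%). With library totals the count was 1 as well, of a member lower at ZT12 and not of Npm1. The median over all genes moved to -0.17 and that of the members to -0.16, so directions of single genes near 0 depend on the scaling here. The distance between the medians did not (0.0102 with TMM, 0.0111 with totals). Enterocyte markers, mostly Epcam, summed to 55.1 to 72 CPM at ZT12, against 44.05 to 51.7 CPM at ZT0. Those of stromal and endothelial cells, mostly Pecam1, summed to 26.3 to 28.5 CPM at ZT12, against 29 to 37 CPM at ZT0. Markers of T cells and innate lymphoid cells summed to 23.9 to 27.1 CPM at ZT12, against 27.2 to 32.4 CPM at ZT0. The 10 heat shock genes summed to 1010 to 5114 CPM at ZT12, against 638.7 to 1258 CPM at ZT0, with overlap. The part of these markers and heat shock genes was not tested.

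Steps of 6 hours share libraries with each other and with the comparisons above. In ZT6 minus ZT0, 4 members rose (Nip7, Polr1c, Wdr43 and Npm1) and 3 fell (Polr1b, Emg1 and Tcof1), against 8.78% of all genes called, 4.65% higher and 4.13% lower, and with library totals 0 rose and 2 fell. Libraries did not overlap in 5 members higher at ZT6 (Ncl, Npm1, Polr1c, Wdr43 and Nip7), against 5.41% of all genes, and in Polr1b and Emg1, lower at ZT6, against 4.84%. The members' median was -0.03, and its distance from that of all genes was -0.03, or -0.07 without ZT6 replicate 5. The count of 7 was 3 without ZT0 replicate 2 and 4 without ZT0 replicate 3, ZT6 replicate 3 or ZT6 replicate 5. The same 7 B cell markers summed to 5.76 to 12.07 CPM at ZT6, against 5.33 to 7.26 CPM at ZT0, with overlap, and their part was not tested. In ZT12 minus ZT6 Polr1b and Tcof1 rose, against 4.58% of all genes (2.34% higher and 2.24% lower), and these and Wdr75 did not overlap, each higher at ZT12 (4.05% of all genes, with 3.91% lower). Here 1 of the calls was lost without ZT12 replicate 2, ZT12 replicate 3 or any of the 5 ZT6 libraries, both were lost without ZT12 replicate 4, and with library totals 1 member fell and 0 rose. In ZT18 minus ZT12 Emg1 rose, against 9.94% of all genes (4.8% higher and 5.14% lower), Emg1 and Rrn3 did not overlap, both higher at ZT18 (5.96%, with 6.68% lower), with 26 of 41 members positive and a median of 0.07, against 0.005 over all genes. Stromal and endothelial markers summed to 26.3 to 28.5 CPM at ZT12, against 33.8 to 37.7 CPM at ZT6 and 29.5 to 37.3 CPM at ZT18. Those of macrophages and dendritic cells summed to 79.6 to 90.9 CPM at ZT18, against 95.3 to 110.5 CPM at ZT12, and the part of these markers was not tested. In ZT0 minus ZT18, 4 members fell (Nip7, Rrn3, Wdr43 and Ddx21), against 7.57% of all genes (3.38% higher and 4.19% lower), with 29 of 41 negative and a median of -0.10, against 0.0066 over all genes. Ncl, Gnl3, Rrn3 and Wdr43 lay wholly lower at ZT0 (5.79% of all genes did, and 4.29% wholly higher). Markers of T cells and innate lymphoid cells, mostly Cd4, summed to 27.2 to 32.4 CPM at ZT0, against 21.5 to 25.2 CPM at ZT18. Those of macrophages and dendritic cells summed to 86.2 to 116.8 CPM at ZT0, against 79.6 to 90.9 CPM at ZT18. Enterocyte markers, mostly Epcam, summed to 44.05 to 51.7 CPM at ZT0, against 56.6 to 64.5 CPM at ZT18, with no overlap. The part of all these markers was not tested. The count of 4 was 1 without ZT0 replicate 2, 3 or 4 or without ZT18 replicate 1, 4 or 5, and 2 without ZT18 replicate 2 or 3.

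**Figure D3:**
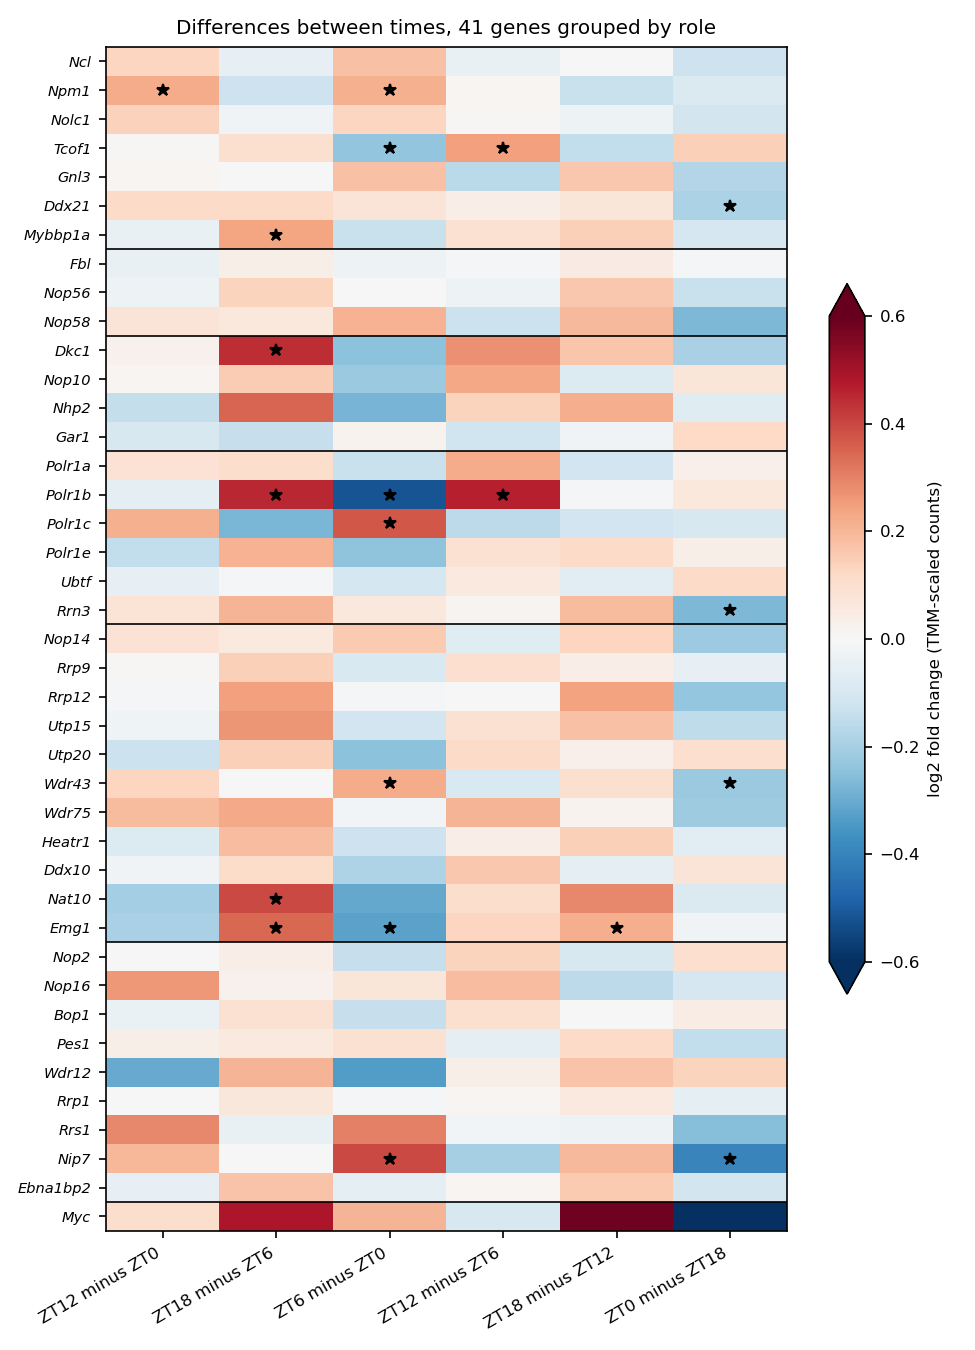
log2 fold changes of the 41 genes (rows, grouped by role with lines between groups) in 6 comparisons of times (columns); red is higher in the first-named time, blue lower, the scale ends at 0.6 either way, and stars mark calls at an adjusted p under 0.01. Reds prevail in ZT18 minus ZT6 (32 of 41 positive) and blues in ZT0 minus ZT18 (29 of 41 negative), while stars stand in few cells.

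The summed level of the 41 genes was 1034 to 1111 CPM at ZT0, 1035 to 1106 CPM at ZT6, 1080 to 1120 CPM at ZT12 and 1129 to 1154 CPM at ZT18. On this scale all 5 ZT18 libraries lay above the other 15, and the sum without Ncl and Npm1, which made up 18.7% of it, kept that order (924.7 to 948.8 CPM at ZT18, against 829.6 to 919.8 CPM at the other times). On other denominators, tried after seeing the data, the times overlapped. As a share of non-immunoglobulin counts the 41 genes held 0.245 to 0.274% at ZT0, 0.249 to 0.268% at ZT6, 0.24 to 0.264% at ZT12 and 0.268 to 0.278% at ZT18, and 1 library at ZT0 and 1 at ZT6 exceeded the lowest at ZT18. Per M counts of the whole library they held 1100 to 1183 counts at ZT18, and ZT0 replicate 1, at 1296, lay above all of these. The 11 small subunit genes summed to 189.1 to 198.7 CPM at ZT18, against 164.7 to 180.9 CPM at ZT6, with no overlap. The 7 scaffold and chaperone genes were lowest at ZT0 by their mean, at 443.4 CPM, and stood at 474.5 to 479.8 CPM at the later times. Cytosolic ribosomal protein genes, whose products the nucleolus assembles, stood at another order of times: the sum over 83 of them averaged 13710 ± 741 CPM at ZT0, 15130 ± 449 CPM at ZT6, 16490 ± 341 CPM at ZT12 and 12870 ± 512 CPM at ZT18 (SD, n = 5 each), and 69 of 80 tested (86.2%) were called between the 4 times, against 19.5% of all genes. Thus the ribosomal protein sum was lowest by its mean at ZT18, where the TMM-scaled sum of the 41 genes was highest. Its libraries at ZT18 (12240 to 13480 CPM) overlapped those at ZT0 (13230 to 14980 CPM). In ZT0 minus ZT18, 9 of the 80 were called, each higher at ZT0 (11.25%, against 7.57% of all genes). The difference between these patterns was not tested.

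**Figure D4:**
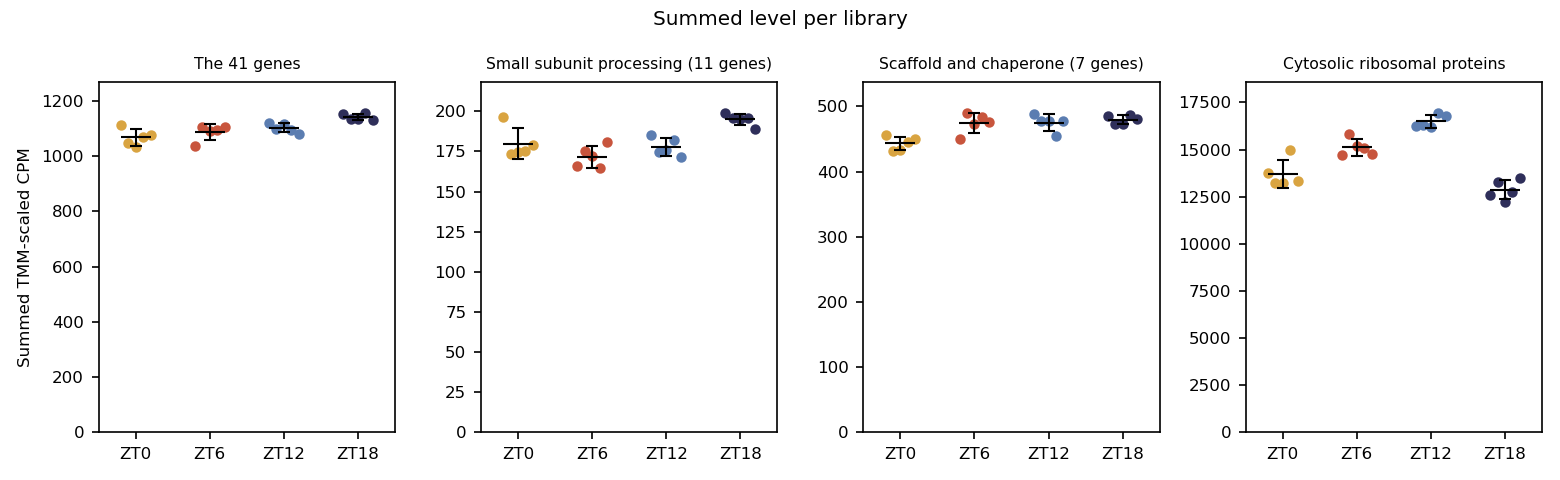
Summed TMM-scaled CPM per library (points) with mean and SD (bars) at each time, for the 41 genes, the 11 small subunit genes, the 7 scaffold and chaperone genes and the cytosolic ribosomal proteins, each on an axis from 0. On this scale the 41 genes reach 1129 to 1154 CPM at ZT18, above the other times, and ribosomal proteins are lowest there at 12870 CPM on average.

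A wider list held 130 further genes, of the pathway and of partners and antagonists of MYC. Of these 128 were matched and 127 tested, and 21 were called between the 4 times, or 16.5%, against 19.5% of all genes. The partners and antagonists of MYC made up 9 of the genes tested and 3 of those called. In ZT18 minus ZT6, 6 rose and 4 fell (7.87%, against 8.24% of all genes), and in ZT12 minus ZT0, 5 rose and 1 fell (4.72%, against 3.86%). These shares were near those of all genes, and called genes went both ways. In ZT18 minus ZT6, 85 of the 127 had positive log2 fold changes (median 0.067), against 7087 of 13967 genes (0.0046). In ZT0 minus ZT18, 80 of the 127 were negative, against 6838 of 13967 genes. In ZT12 minus ZT0, 63 were positive and 64 negative. Nop53, a large subunit factor, averaged 106.9 ± 4.5 CPM at ZT18 against 150.5 ± 5.0 CPM at ZT6 (log2 fold change -0.49, adjusted p = 3.87e-08), and Imp3, of the small subunit processome, 21.9 ± 1.2 CPM at ZT18 against 27.6 ± 0.97 CPM at ZT6 (-0.34, adjusted p = 0.00052). Ddx54, a helicase, went the other way, at 71.8 ± 3.1 CPM at ZT18 against 61.1 ± 5.5 CPM at ZT6 (0.23, adjusted p = 0.00291), and was highest at ZT0 (82.3 ± 4.6 CPM). Nol10 (adjusted p = 0.000288 between the 4 times) and the trimming nuclease gene Isg20l2 (0.000208) had their highest means at ZT18, at 12.5 ± 1.0 and 19.9 ± 2.0 CPM. The snoRNP assembly genes Ruvbl2 (adjusted p = 0.00496) and Shq1 (0.0064) were called too, with highest means at ZT0. Exosc10 (0.0246), of the RNA exosome, and the RNA polymerase I factors Taf1b (0.254) and Ttf1 (0.312) were not.

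Several members carry snoRNA genes, which guide the modification of ribosomal RNA, within their own bounds. GENCODE M21 places snoRNA genes inside 6 of the 41 members (14.6%), against 1.76% of 11810 tested protein-coding genes: Nop56 holds 5, Nop58 4, Ncl, Gnl3 and Wdr43 3 each, and Dkc1 1. Of these 6, Dkc1 and Wdr43 were called between the 4 times, against 19.5% of all genes tested. Their calls were lost in 14 and 13 of 20 fits that left out 1 library. Libraries were selected on poly-T beads, and the snoRNAs themselves were not analysed here.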

How the data were processed

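Poly-T-selected RNA of 20 sorted IgA+ PC populations was sequenced as read pairs. Raw counts per gene (47069 genes) were deposited by the authors, with FPKM for 18886 genes. For all 18071 genes with a value, these FPKM were the count over the library total and over 1 length for each gene (relative tolerance 1e-06). Aligner, build, annotation and strand were not given in the sources used here. Symbols and positions came from GENCODE M21 (GRCm38; 46574 identifiers matched) and promoters from RefSeq.

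Counts were analysed with edgeR 4.0.16 in R 4.3.3, using filterByExpr, TMM and a robust quasi-likelihood fit of 4 groups over 20 libraries (common biological coefficient of variation 0.224), with calls at a Benjamini-Hochberg adjusted p under 0.01 over 13967 genes. Each SE is the log2 fold change over the root of its F statistic. Python 3.11.15 and pandas 2.3.3 made the tables. The scripts were tested on simulated data. Alternatives were other scalings and filters, a replicate block, only the 2 times compared, DESeq2 1.42.0, limma 3.58.1 on log2(FPKM + 0.1) or log2(FPKM + 1), a JTK rank test and left-out libraries. Members, lists and tests were chosen with earlier results of these data known. By rule, all 41 genes are named, with library values for Myc and the 2 members of each role with the smallest p between the 4 times, and from the wider list the 2 smallest p of each sub-list; library values of other called members, and the values of Ncl, were added after they were seen. PCR copies were not marked, so counts are not independent molecules. The value of 1 B cell marker is not reported here.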

Additional observations from a re-analysis of the deposited data

Results flagged for a closer look

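Of 164 groups of 5 libraries (41 genes at 4 times), 5 held a library far from the others by Dixon's test at 95%; chance flags about 1 in 20 groups. Polr1c at ZT12 was highest in replicate 1, at 18.2 CPM, against 14.2 to 15.3 CPM in the others. Rrp12 at ZT0 was highest in replicate 1, at 15.9 CPM, against 9.74 to 11.5 CPM. Wdr75 at ZT0 was highest in the same library, at 20 CPM, against 14.9 to 15.9 CPM. Nop16 was lowest in ZT6 replicate 1, at 5.27 CPM, against 7.05 to 7.47 CPM, and in ZT18 replicate 4, at 4.80 CPM, against 7.40 to 7.85 CPM. None of these genes was called between the 4 times by edgeR, where Polr1c had an adjusted p of 0.0127, Wdr75 of 0.0274, Rrp12 of 0.177 and Nop16 of 0.321.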

How the results depend on the processing

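No called difference of a member changed sign in any alternative run, but calls were lost or gained as follows, and causes were not tested. Where libraries were left out, their content and the smaller number of libraries cannot be told apart. Of members called between the 4 times (10), library totals, limma on log2(FPKM + 0.1) and limma on log2(FPKM + 1) each left 3, and DESeq2 gave 16. The fit without the 3 libraries highest in Paneth and goblet genes left 3, and leaving out 1 library gave 5 to 13. Over all genes these settings called 2452, 2083, 2116, 3359 and 1975, in that order, against 2727. The cosine count (6) was 2, 3 and 3 with library totals and the limma fits, and 0 by JTK (8 members at an unadjusted p under 0.05). It was 2 without the 3 libraries, and leaving out 1 gave 3 to 7. ZT18 minus ZT6 (5) gave 1, 2 and 2, and 1 without the 3 libraries (2 to 5 leaving out 1), and ZT6 minus ZT0 (7) gave 2, 2 and 2, and 2 without them (3 to 9). ZT12 minus ZT0 (1) gave 0 with no filter beyond 1 count in total and 0 without the 2 libraries highest in heat shock genes (12 and 11 at an unadjusted p under 0.05), and 0 to 1 leaving out 1. ZT12 minus ZT6 (2) gave 1, 0 and 0, 1 without the heat shock libraries and 0 without the 3 libraries (0 to 2; where 0, 5 to 9 at an unadjusted p under 0.05). ZT18 minus ZT12 (1) gave 0 with RLE factors, TMM without immunoglobulin genes, only the 2 times in the fit, without the heat shock libraries and without the 3 libraries, and DESeq2 gave 2 (0 to 2; where 0, 9 to 15 unadjusted). ZT0 minus ZT18 (4) gave 0, 0 and 0 (5 unadjusted in each), 1 with only the 2 times, 2 without the heat shock libraries and 2 without the 3 libraries (1 to 6). Over all genes, library totals raised the ZT12 minus ZT0 count to 959, against 539, and lowered the ZT18 minus ZT6 count to 689, against 1151, and the ZT6 minus ZT0 count to 687, against 1226, and the ZT0 minus ZT18 count to 686, against 1057. Limma on log2(FPKM + 0.1) and log2(FPKM + 1) gave 838 and 835, 629 and 629, 588 and 602, and 565 and 578 in the same comparisons, JTK called 123 genes where the cosine called 1578, and without the 3 libraries ZT18 minus ZT6 gave 635, ZT6 minus ZT0 666 and ZT12 minus ZT6 285, against 640. The replicate block left 0 of the 1 member in ZT18 minus ZT12 and kept the other counts within 1.5 times. The labels do not say whether equal numbers belong together. Same-numbered libraries correlated at -0.132 to 0.114 and 4 of 20 correlated best with their own number, which cannot exclude a small shared effect. Leaving out both sets of libraries was chosen after seeing the data. Of 1552 alternative values of members and of counts of members, 1150 stayed on the same side.

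With 5 animals a time the median SE of the members was 0.08 in each comparison, and the smallest difference called was -0.19 on the log2 scale, that of Ddx21 in ZT0 minus ZT18.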
